A study of Homo sapiens with 3 samples.

Results

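HMGA1 is an architectural chromatin protein whose AT-hook motifs bind AT-rich DNA in the minor groove. It was mapped by chromatin immunoprecipitation and sequencing (ChIP-seq) in DAMI cells, a line labelled MPN/AML, meaning myeloproliferative neoplasm and acute myeloid leukaemia. The series holds 3 libraries of this line grown in medium with serum, no treatment being named, and each is 1 sample: a ChIP for HMGA1, a ChIP for the core histone H3, and input DNA taken without antibody. The authors deposited 2 lists of HMGA1 peaks, 1 called against input DNA (the input list) and 1 called against H3 (the H3 list). Described here is the stretch of chromosome 4 that carries the receptor tyrosine kinase genes PDGFRA, KIT and KDR, taken as all peaks with a summit from 54500000 to 56700000 on the hg19 build. The input list had 226 such peaks of 385953 in all, and the H3 list had 108 of 263033. Both lists use the same HMGA1 reads, so a site found in both was not measured independently. There are no replicates, and all intervals cover counting error only. PCR duplicates without molecular identifiers are not independent molecules.

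PDGFRA, KIT and KDR descend from an ancestral gene by duplication and lie side by side in the same order in mammals. PDGFRA encodes the alpha receptor for platelet-derived growth factor, which acts mainly in mesenchymal cells. KIT encodes the receptor for stem cell factor, which blood stem cells, mast cells and early megakaryocyte and erythroid progenitors use to survive and divide. KDR encodes the main signalling receptor for vascular endothelial growth factor and marks endothelial cells and their precursors. PDGFRA and KIT are known disease genes of the myeloid lineage: PDGFRA is fused to FIP1L1 in some eosinophilic neoplasms through a deletion that removes CHIC2, and KIT is mutated in mastocytosis. Expression was not measured in this series, so the cell line was not checked by its marker genes.

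On hg19, PDGFRA spans chr4:55095264-55164412 (69.1 kb) and KIT spans chr4:55524095-55606881 (82.8 kb), and both are read from the lower coordinate. KDR spans chr4:55944426-55991762 (47.3 kb) on the opposite strand, so its start is at 55991762. The stretch between PDGFRA and KIT is 359.7 kb long and that between KIT and KDR 337.5 kb. In the RefSeq gene order (GRCh38.p14) neither holds a protein-coding gene. Before PDGFRA that order has FIP1L1, LNX1, CHIC2 and GSX2, and after KDR it has SRD5A3, TMEM165, CLOCK, PDCL2 and NMU. An hg19 annotation was not used here, so peaks are placed against gene starts and ends and not against exons or introns.

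HMGA1 favours AT-rich DNA, and for this reason the 250 bases before each RefSeq start of the 3 genes are shown (GRCh38.p14, 5′ to 3′ in the direction of the gene), with every run of 6 or more letters that are each A or T in capitals. The first 2 belong to the 2 RefSeq starts of PDGFRA (chr4:54229043-54229292 and chr4:54233710-54233959, plus strand), the next to KIT (chr4:54657707-54657956, plus strand) and the last to KDR (chr4:55125596-55125845, minus strand).
PDGFRA, first start: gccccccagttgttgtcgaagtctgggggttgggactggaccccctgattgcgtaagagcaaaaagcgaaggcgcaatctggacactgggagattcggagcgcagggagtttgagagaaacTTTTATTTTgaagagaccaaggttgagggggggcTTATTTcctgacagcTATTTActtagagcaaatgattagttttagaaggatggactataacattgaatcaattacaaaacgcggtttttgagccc
PDGFRA, other start: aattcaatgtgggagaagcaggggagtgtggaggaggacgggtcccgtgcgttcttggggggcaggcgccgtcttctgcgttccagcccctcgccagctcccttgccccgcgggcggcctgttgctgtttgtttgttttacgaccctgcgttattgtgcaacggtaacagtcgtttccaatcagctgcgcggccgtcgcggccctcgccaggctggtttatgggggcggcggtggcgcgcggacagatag
KIT: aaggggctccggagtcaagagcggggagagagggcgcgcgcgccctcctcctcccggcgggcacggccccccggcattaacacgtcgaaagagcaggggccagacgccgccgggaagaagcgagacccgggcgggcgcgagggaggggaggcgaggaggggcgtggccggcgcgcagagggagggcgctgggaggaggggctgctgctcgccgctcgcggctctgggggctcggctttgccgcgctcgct
KDR: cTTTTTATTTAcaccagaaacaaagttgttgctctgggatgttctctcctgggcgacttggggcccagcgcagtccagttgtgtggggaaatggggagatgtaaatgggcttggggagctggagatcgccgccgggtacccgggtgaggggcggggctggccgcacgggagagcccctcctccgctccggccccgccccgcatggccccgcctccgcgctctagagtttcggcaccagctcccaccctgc
The stretch before KIT was poor in A and T, at 23.6%, and 8.10% of the 35116 RefSeq promoter stretches of this length had a lower value. The KDR stretch had 34.8% and the other PDGFRA stretch 36.0%, against a median of 42.0% over all (quartiles 32.0% and 53.6%). The first PDGFRA stretch was richer, at 53.2%, and 73.7% of all stretches lay below it. It held 3 of the A/T runs, up to 9 letters long, and the KDR stretch held 1 run of 10 letters starting at its second letter. The KIT stretch and the other PDGFRA stretch held none. A run of at least 6 such letters, which is also a run of A or T letters on the other strand, occurs in 58.7% of all these stretches. Runs of at least 9 letters occur in 26.4% and of at least 10 letters in 19.7%. A run is a description of the letters and not a binding site.

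No HMGA1 peak had its summit within 1 kb of the start of any of the 3 genes, in either list. This does not set the starts apart from the region. Its successive summits lay a median of 6.48 kb apart over input and 11.1 kb over H3, so most positions in it are farther than 1 kb from a summit. The share of all gene starts with such a peak was not counted. Starts are those of the hg19 spans given above, and the 2 RefSeq starts of PDGFRA were not placed against the peaks. KDR came closest. A peak at chr4:55993289-55993573 lay 1.66 kb upstream of its start, with 20 HMGA1 reads at the summit and a 5.55-fold enrichment over input. The same site was 5.25-fold over H3, with the summit 1.65 kb upstream. Folds are the authors' own value for each peak, and reads are whole HMGA1 reads worked out from that fold and its p-value. In the H3 list 1 HMGA1 read counts as 0.787, and H3 levels are on that scale. At KIT the nearest summits over input were 7.47 kb upstream, with 12 reads and 3.44-fold, and 6.68 kb downstream, with 15 reads and 4.23-fold. Neither had an H3-list peak, so over H3 the summits flanking the KIT start were 15.6 kb upstream and 44.4 kb downstream, 60.0 kb apart. The start of PDGFRA lay in the widest gap of the 3 in both lists, with 42.4 kb between flanking summits over input and 63.8 kb over H3. The nearest summit there was 12.5 kb inside the gene. Within 5 kb of a start the input list had 2 peaks at KDR and none at PDGFRA or KIT, and the H3 list had 1 at KDR and none at the others. A start with no peak does not show that HMGA1 is absent: the lowest pileup among the peaks of this stretch was 9 reads over input and 14 over H3, and sites below the calling limits were not detectable at this depth.

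PDGFRA carried 6 peaks over input and 3 over H3, spread from 12.5 to 57.2 kb behind its start. Peak density over input was 86.8 per Mb (exact Poisson 95% interval 31.8 to 189) and over H3 43.4 per Mb (8.95 to 127). HMGA1 reads at the 6 summits were, in the direction of the gene, 19, 25, 18, 9, 20 and 18. The summit with 25 reads, in the peak at chr4:55115831-55116095, had the highest fold of the gene in both lists, 6.88 over input and 6.48 over H3. It lay 20.7 kb behind the start.

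The peak of PDGFRA at chr4:55146771-55147002 stood apart by its controls. Its 20 HMGA1 reads stood over an input level of 7.12, and the fold over input was 2.59, the lowest of the 17 gene peaks. Input levels are scaled to the HMGA1 reads and are not counts of input reads. Against H3 the same 20 reads gave 5.25-fold, because H3 was at its floor of 2.19 reads there. The floor is the genome-wide control level below which MACS2 sets no local value, a scaled level of 2.78 for input. The input level at this site was 2.56 times its floor, the highest of the 226 input-list peaks in the stretch. At the remaining PDGFRA peaks the input control was at its floor. The weakest of them, at chr4:55132440-55132678, held 9 reads and a 2.64-fold enrichment, and like the 2 peaks with 18 reads it had no H3-list counterpart.

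KIT carried 7 peaks over input and 5 over H3, the most of the 3 genes. This was 84.6 per Mb over input (interval 34.0 to 174) and 60.4 per Mb over H3 (19.6 to 141). The 7 input-list summits held 15, 16, 20, 21, 16, 25 and 27 reads from the start of the gene towards its end. All 5 that also had an H3-list peak lay between 44.4 and 68.5 kb behind the start, in the far part of the gene beyond its midpoint, within 24.1 kb of each other. The 2 nearer the start, at 6.68 and 33.0 kb, had 15 and 16 reads, folds over input of 4.23 and 3.73, and no H3-list peak. In the region as a whole, only 14 of 58 input-list peaks with 15 to 16 reads had an H3-list peak. The highest fold of KIT was at chr4:55592437-55592715, 7.40 over input and 6.98 over H3 with 27 reads, followed by chr4:55588815-55589243 with 25 reads, 6.88 and 6.48. The peak at chr4:55572199-55572910 was the widest of the gene peaks, at 712 bp over input and 586 bp over H3, with 21 reads and 5.82-fold over input. At chr4:55582483-55582736 it was H3 that lay above its floor, at 3 reads against 2.19, or 1.37 times the floor. This small difference rests on few H3 reads of 1 library. The 16 HMGA1 reads there gave 4.50-fold over input and 3.40-fold over H3.

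KDR carried 4 peaks over input and 1 over H3. Densities were 84.5 per Mb (interval 23.0 to 216) and 21.1 per Mb (0.535 to 118). In the direction of the gene the 4 summits held 15, 28, 17 and 15 reads, all with the input control at its floor. The second, at chr4:55965025-55965336 and 26.6 kb behind the start, had the highest fold of all 17 gene peaks, 7.67 over input. It was also the only KDR peak found over H3, at 7.22-fold. The other 3 had folds over input of 4.23, 4.76 and 4.23.

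**Figure D1:**
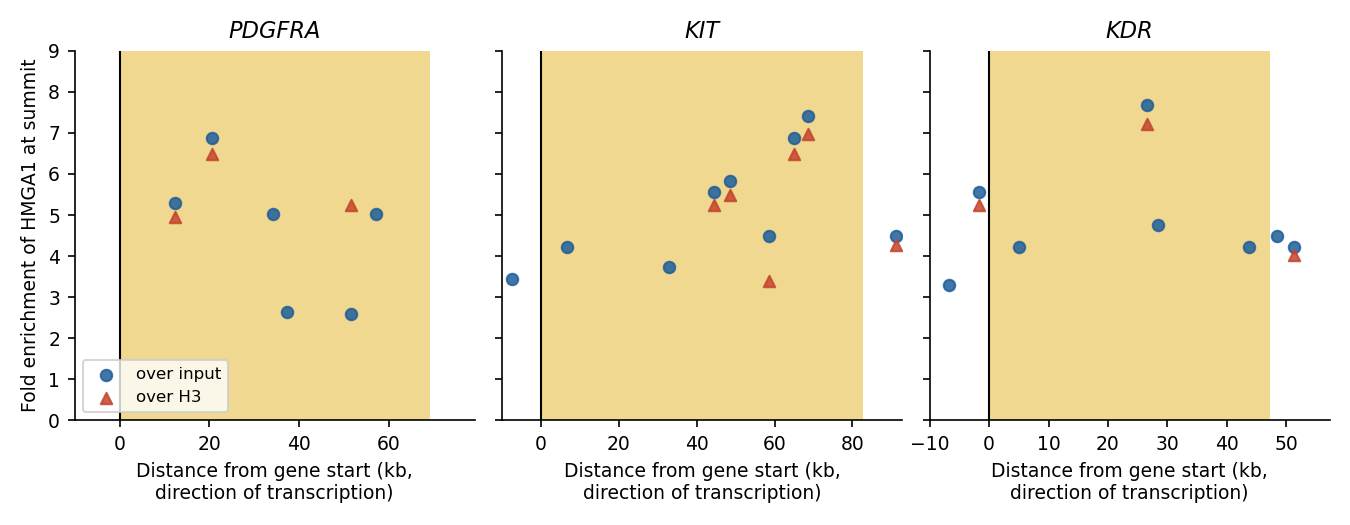
Fold enrichment of HMGA1 at each peak summit (vertical axis, circles over input and triangles over H3) against the distance of the summit from the gene start in kb, in the direction of transcription, for PDGFRA, KIT and KDR with 10 kb on either side; shading marks the gene. No point lies within 1 kb of a start, and the triangles inside KIT lie between 44.4 and 68.5 kb.

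Set side by side, the 3 genes had nearly the same peak density over input, and their intervals overlapped widely. Over H3 the values were 43.4, 60.4 and 21.1 per Mb for PDGFRA, KIT and KDR, but with 3, 5 and 1 peaks these differences were smaller than the counting error. Reads at summits overlapped between the genes as well, from 9 to 25 in PDGFRA, 15 to 27 in KIT and 15 to 28 in KDR, with medians of 18.5, 20 and 16. Of the 17 gene peaks over input, 9 (52.9%, Wilson 95% interval 31.0 to 73.8) had an H3-list peak: 3 of 6 in PDGFRA, 5 of 7 in KIT and 1 of 4 in KDR. In the whole input list this share was 65.8%. The 9 peaks of the genes in the H3 list all overlapped an input-list peak, against 98.3% of the whole H3 list. None of the 17 had a fold over input of at least 8 (Wilson 95% interval up to 18.4%), against 7.23% of the whole list. None of the 9 had such a fold over H3 (interval up to 29.9%), against 10.1%. Neither count sets the genes apart from the lists as a whole.

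Between the genes, HMGA1 peaks were about as frequent as inside them. The stretch from PDGFRA to KIT held 30 peaks over input (83.4 per Mb, interval 56.3 to 119) and 14 over H3 (38.9 per Mb). The stretch from KIT to KDR held 36 (106.7 per Mb, 74.7 to 148) and 14 (41.5 per Mb). Per Mb, the 3 genes together had 0.901 times the input-list peaks of these 2 inner stretches (exact 95% interval of the ratio 0.496 to 1.55) and 1.12 times the H3-list peaks (0.467 to 2.45). Against all 4 stretches, those before PDGFRA and after KDR included, the ratios were 0.817 (0.467 to 1.34) and 0.913 (0.405 to 1.80). With 17 and 9 gene peaks, no difference between genes and stretches was detectable. Summit heights overlapped too, with a median of 18 reads over input in the genes (quartiles 16 and 21) and 16 in the stretches (14 and 20).

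The outer stretches differed from each other. After KDR, towards SRD5A3 and CLOCK in the gene order, there were 97 input-list peaks in 708.2 kb, or 137.0 per Mb (interval 111 to 167). Before PDGFRA, towards CHIC2 and GSX2, there were 46 in 595.3 kb, or 77.3 per Mb (56.6 to 103). The ratio of these densities was 1.77 (1.24 to 2.58) over input and 1.87 (1.11 to 3.25) over H3, where the counts were 49 and 22. This pair was compared after its values were seen. Median folds over input differed little, at 4.50 after KDR and 4.37 before PDGFRA. The share of peaks with the input control at its floor was 73.2% and 73.9%.

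**Figure D2:**
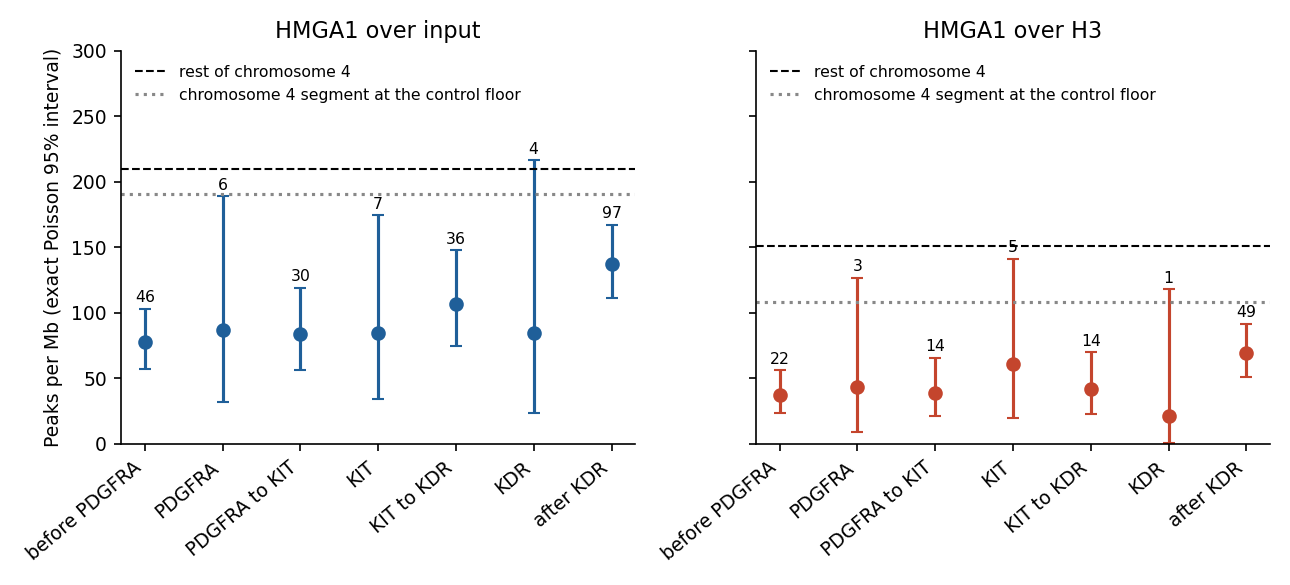
HMGA1 peaks per Mb (vertical axis) in each gene and stretch, left over input and right over H3; points are densities, bars exact Poisson 95% intervals, and numbers above the bars are peaks. The dashed and dotted lines give the rest of chromosome 4 and its segment at the control floor, and every point lies below both lines.

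The strongest HMGA1 sites of the region lay outside the 3 genes. So did most of its peaks, since the genes held only 17 of 226 over input and 9 of 108 over H3. The region's highest fold and highest −log10 q in both lists belonged to 1 site after KDR, at chr4:56142248-56143625 over input, where 38 HMGA1 reads stood 10.3-fold over input and 9.69-fold over H3. This peak was 1378 bp wide over input, the widest in the region, and 856 bp over H3. Its rank by fold was 6051 of the whole input list and 9111 of the whole H3 list. The next by fold was also after KDR, at chr4:56268238-56268623, with 36 reads and folds of 9.78 and 9.20. In the stretch from PDGFRA to KIT the leading site depended on the control. Over input it was chr4:55196765-55197113 with 35 reads and 9.52-fold, where the H3 level was 4 reads and the fold over H3 only 5.71. Over H3 it was chr4:55277347-55277678 with 34 reads and 8.70-fold. From KIT to KDR the leading site in both lists was chr4:55884179-55884795 over input, with 31 reads and folds of 8.46 and 7.96. Before PDGFRA it was chr4:54595713-54596000, with 30 reads and folds of 8.20 and 7.72.

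Peaks with a fold of at least 8 over input numbered 11 of 226 in the region (4.87%, interval 2.74 to 8.50), against 7.23% of the whole input list. Over H3 they numbered 5 of 108 (4.63%, 1.99 to 10.4), against 10.1%. All 11 lay in the stretches, which held 209 of the 226 peaks, so their absence from the genes does not set the genes apart. There were 6 after KDR, where 97 of the 226 peaks lay. Another 3 were between PDGFRA and KIT, and 1 each before PDGFRA and between KIT and KDR. In the part of chromosome 4 with its control at the floor, described next, the shares were 3.72% and 4.65%, inside both intervals.

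**Figure D3:**
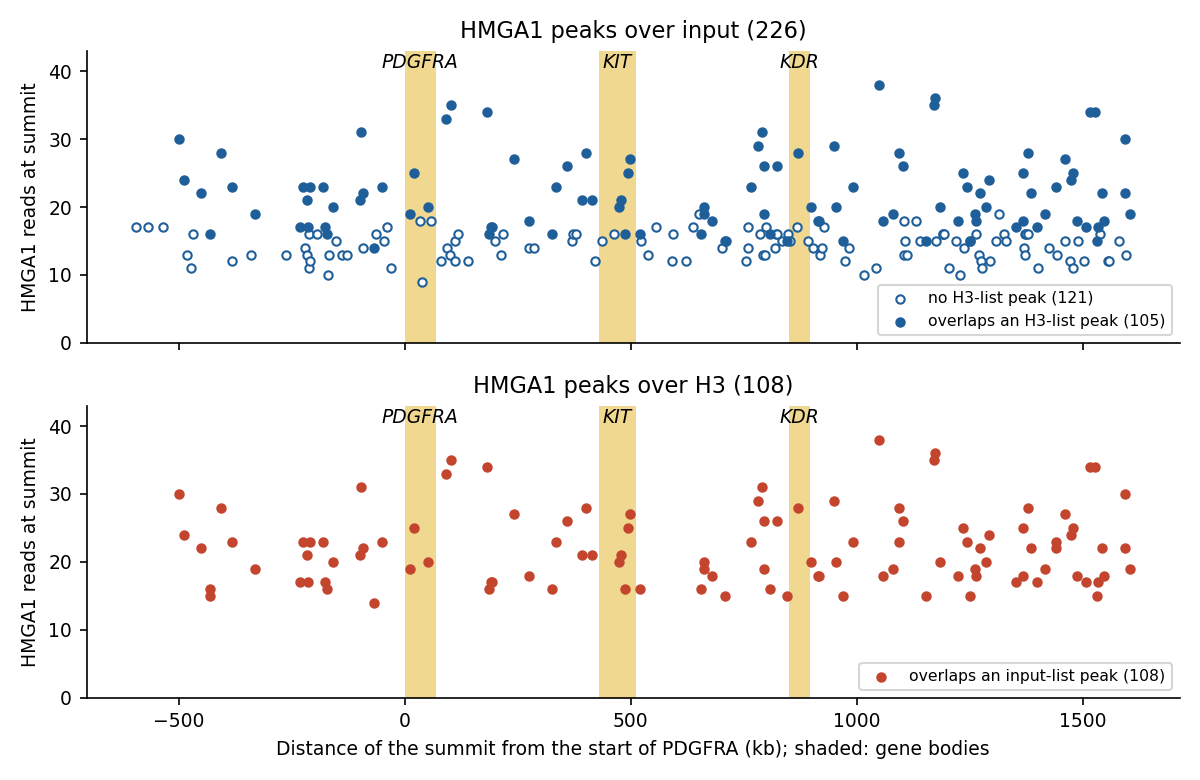
HMGA1 reads at each peak summit (vertical axis) against the distance of the summit from the start of PDGFRA in kb, above for the input list and below for the H3 list; shading marks the genes. Open circles are the 121 input-list peaks with no H3-list peak, and the highest point, with 38 reads, lies after KDR.

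As a whole, the region was thinly covered for its chromosome. It held 102.7 input-list peaks per Mb (interval 89.8 to 117), against 209.7 in the rest of chromosome 4, a ratio of 0.490 (0.428 to 0.558). Over H3 it held 49.1 per Mb (40.3 to 59.3) against 151.1, a ratio of 0.325 (0.266 to 0.392). The control level at peaks differed as well. The input control was above its floor at 25.2% of the region's peaks and at 61.2% of the peaks in the rest of chromosome 4, and H3 at 15.7% and 58.8%. The median summit held 16 HMGA1 reads against 21. Both are therefore set beside the run of 5 Mb windows around the genes in which the median input control was at the floor. This segment, chr4:50000001-135000000, was chosen after the data were seen. Without the region itself its density over input was 190.5 per Mb, and over H3 it was 108.4, with the input control above its floor at 21.4% of peaks and a median of 17 HMGA1 reads. The ratios were then 0.539 (0.471 to 0.615) and 0.453 (0.371 to 0.547). The density was thus also lower than in this segment. Control levels below the floor cannot be seen in either, and the cause of the lower density was not tested.

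Against chromosome 4, the sparseness ran through the whole region. Of its 22 tiles of 100 kb, all 22 held fewer input-list peaks than the median tile of chromosome 4 (19 peaks), and 21 held no more than 16, below the segment's median of 18. The tile counts ran from 4 to 18 over input and from 1 to 10 over H3, against segment quartiles of 12 and 25.75 over input and 6 and 15 over H3. Against all autosomes the ratio was 0.776 (0.678 to 0.884) over input and 0.540 (0.443 to 0.652) over H3. The median fold over input was 4.50 in the region, in the segment and in the rest of the chromosome, and over H3 5.25, 5.17 and 5.19.

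Fewer of the region's peaks over input were also found over H3. A total of 105 of 226 had an H3-list peak (46.5%, interval 40.1 to 53.0), against 65.8% of the whole list and 55.4% (54.7 to 56.2) of the chromosome 4 segment. In the other direction all 108 H3-list peaks overlapped an input-list peak (96.6 to 100), against 98.3% of the whole H3 list. The share rose with the height of the peak. Such a rise follows largely from the calling, since both lists use the same HMGA1 reads. The lowest H3-list peak of the region held 14 reads. With 21 or more HMGA1 reads, all 55 input-list peaks had an H3-list peak (93.5 to 100), against 99.6% of the segment's. With 17 to 20 reads it was 35 of 51 (68.6%, 55.0 to 79.7), against 81.8% (80.6 to 83.0). With 15 to 16 reads it was 14 of 58 (24.1%, 15.0 to 36.5), against 41.0% (39.1 to 42.9), and with up to 14 reads 1 of 62 (1.61%, 0.285 to 8.59), against 8.95% (8.21 to 9.75). Below 21 reads the region lay under the segment in each height class. The intervals did not overlap from 15 to 20 reads, and they overlapped in the lowest class. The height classes were chosen after the data were seen. Among the 5 gene peaks with 21 or more reads all 5 had an H3-list peak. Of the 12 lower ones 4 did: 3 of the 6 with 17 to 20 reads, 1 of the 5 with 15 to 16 reads, and not the single one with 9 reads.

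**Figure D4:**
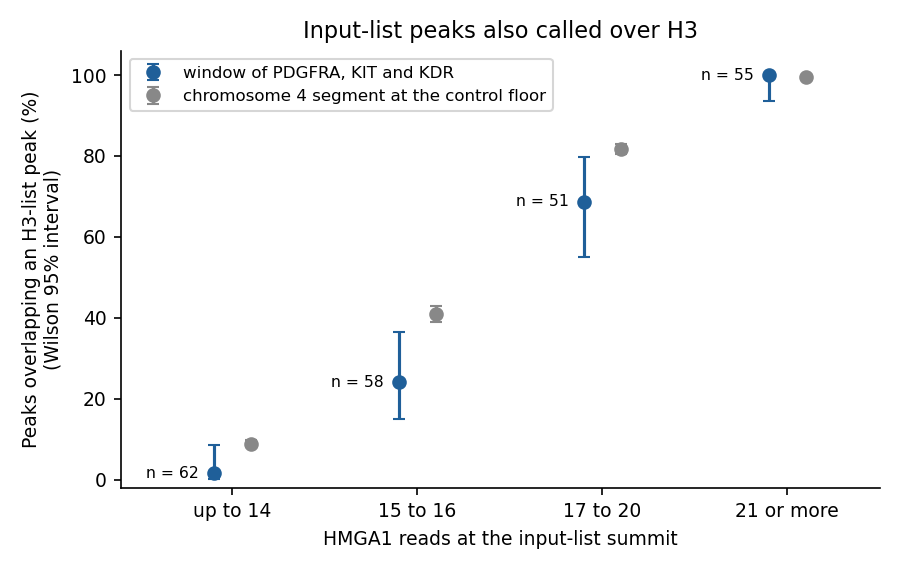
Share of input-list peaks that overlap an H3-list peak (vertical axis, percent, bars Wilson 95% intervals) by class of summit height in HMGA1 reads, for the region of PDGFRA, KIT and KDR (blue, n beside each point) and the chromosome 4 segment at the control floor (grey). The share is 24.1% against 41.0% at 15 to 16 reads and 100% against 99.6% at 21 or more.

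Where both lists had a peak, both folds came from the same HMGA1 reads. At a shared summit they could therefore differ only through the control level and the scaling. The 108 H3-list peaks met 105 input-list peaks, 3 of which overlapped 2 H3-list peaks. Summits lay within 50 bp of each other in 105 of the 108 pairs, and the recovered HMGA1 reads were equal in 105. In 64 pairs both controls were at their floor, and there the fold follows from the HMGA1 reads alone. In 27 pairs input alone was above its floor, in 12 H3 alone, and in 5 both were. Relative to its floor, input exceeded H3 by more than 1.5 times in 14 pairs, and H3 exceeded input by as much in 4. Of the 9 pairs in the genes, 1 was of the first kind, the PDGFRA site with an input level of 7.12, and none of the second. Of the 4 where H3 was higher, 3 lay between PDGFRA and KIT, with H3 levels of 4, 3.55 and 4 reads, and the other after KDR.

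**Figure D5:**
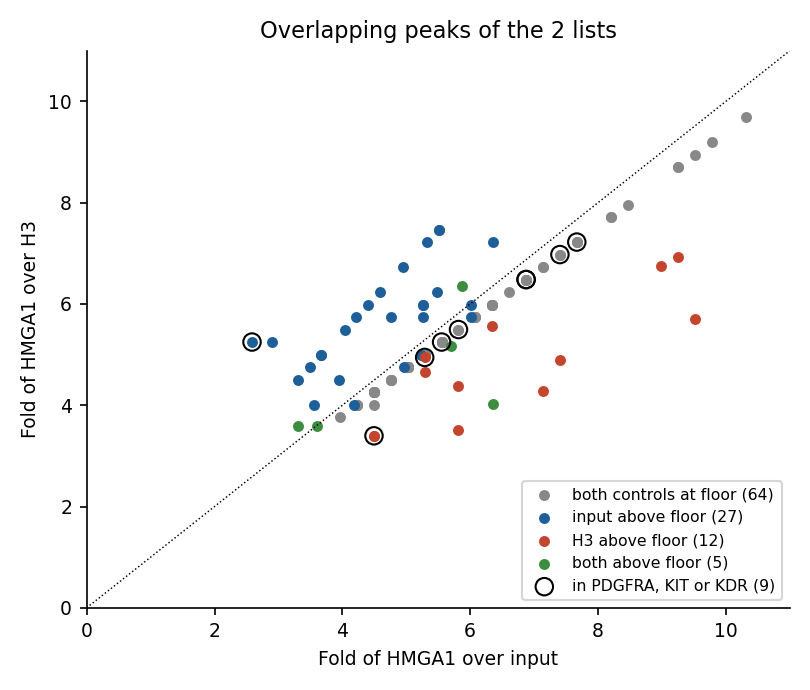
Fold of HMGA1 over H3 (vertical axis) against fold over input (horizontal axis) for the 108 pairs of overlapping peaks; colours give which control was above its floor, rings mark the 9 pairs inside PDGFRA, KIT or KDR, and the dotted line marks equal folds. The ring farthest above the line is the PDGFRA site at 2.59-fold over input and 5.25-fold over H3.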

How the data were processed

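Peaks were called with MACS2 on hg19, per the submitters' processing notes; the aligner is not given in the sources used here. Both deposited lists compare 1 HMGA1 library with 1 control; their peak names carry another prefix for the ChIP, taken to be HMGA1 from the names of the lists. The authors' deposited columns used were the fold ratio over the control at the summit, the −log10 p-value and q-value, and the summit position. The deposited score was not used further. Depth is unknown. HMGA1 reads and control levels at summits were recovered by solving for the pileup x and level L with fold (x + 1)/(L + 1) and a Poisson tail above the whole part of x. All 385953 input-list peaks gave whole reads within 0.002, and all 263033 H3-list peaks did after a fitted factor of 0.787 on the HMGA1 reads. The procedure was also tested on simulated data.

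The coordinates of the 3 genes came with the choice of the region. Peaks were placed by summit. Overlap means at least 1 bp. Densities have exact Poisson intervals, shares Wilson intervals, and ratios of densities conditional exact intervals, all at 95%. No test was made, since there is 1 library per antibody. The length of chromosome 4 is its last base in a peak. Named peaks are, in each list, the highest fold in each gene and stretch, those nearest each start, and the 3 highest by fold and by −log10 q in the region. All gene peaks, the control-level outlier and sites with differing controls were named after their values were seen. The segment of chromosome 4 at the control floor and the leaving out of empty tiles were chosen after seeing the data. The region, the genes and these choices were made with earlier results of these data known. Promoter stretches are from RefSeq (GRCh38.p14, all 3 genes matched); they were not placed against the hg19 peaks. Coordinates of peaks are 1-based. Python 3.11.15, scipy 1.17.1, pandas 2.3.3, numpy 2.4.6 and, for plots, matplotlib 3.10.9 were used. Planned counts for neighbouring and related receptor genes were not run, since no hg19 annotation was used here.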

Additional observations from a re-analysis of the deposited data

How the results depend on the processing

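No paired analysis was possible because each antibody and the input had 1 library, and for the same reason none could be left out. Of 88 alternatives to 22 results, 56 stayed within the counting interval, the quartiles or 1.5 times of the reported value. With only the 20000 peaks of highest −log10 q in each list, PDGFRA, KIT and KDR had 0 peaks in both lists, so the density in genes over stretches was 0 in both, and the region against the rest of chromosome 4 fell to 0.114 over input and 0.0546 over H3. With at least 25 HMGA1 reads the gene counts were 1 for PDGFRA, 2 for KIT and 1 for KDR in both lists. The density in genes over stretches was then 1.49 in both lists, and the region over the rest of chromosome 4 was 0.185 over input and 0.187 over H3. By construction this filter also raised the medians: fold to 7.40 over input and 6.98 over H3 in the region and 7.14 and 6.73 in the genes, and reads to 28 in the region and 26 in the genes in both lists. The share of input-list peaks found over H3 became 100%, and with a −log10 q of at least 5 in both lists 56.5%. The share of H3-list peaks found over input was 92.6% with 50% of both peaks shared and 95.5% with that q limit. With 5 kb before the start added, KDR had 2 H3-list peaks. Against the segment at the control floor the region's density over H3 was 0.453. The density in genes over stretches over input also passed 1 with a −log10 q of at least 5 (1.06) and a fold of at least 4 (1.10), so its direction is not settled. The cause of the other changes was not tested. Exons, expression and sites under the calling limit were not analysed here.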

Other observations

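Peaks of the region were widely spaced. The median distance between successive summits was 6.48 kb over input (quartiles 2.97 and 13.0), against 2.54 kb on chromosome 4 and 2.92 kb in its segment at the control floor. Over H3 it was 11.1 kb against 3.13 and 4.93 kb. Even so, 13 of 225 distances over input and 5 of 107 over H3 were at most 1 kb, the shortest being 422 and 400 bp. The longest stretch without an input-list summit ran 70.4 kb from 54763288 to 54833681, before PDGFRA, and the next 44.0 kb from 55806727 to 55850754, between KIT and KDR. In the H3 list the longest was 134.3 kb from 55615301 to 55749581, between KIT and KDR, and the next 100.2 kb from 54763292 to 54863520, before PDGFRA. A stretch without a peak does not show that HMGA1 is absent. The gene context of these stretches was not analysed here.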
